A study of Mus musculus with 8 samples.

Results

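Immediate early genes of neuronal activity are those that neurons switch on first when they fire, and 10 of them, *Fos*, *Fosb*, *Junb*, *Egr1*, *Egr2*, *Egr3*, *Egr4*, *Arc*, *Npas4* and *Nr4a1*, were followed in RNA-seq libraries of the mouse primary motor cortex (M1). They were chosen by name and are 10 of the 38031 genes in the table. Each gene was represented by its annotated transcript with the lowest Ensembl number. The tissue came from Swiss Webster mice, all male, at P49 to P53. Its neurons had been transduced by a lentivirus given at P21 to P25. The virus encoded mCherry together with *Fezf2 shRNA* or, for the control, *non-silencing shRNA*. Under pentobarbital the mice were perfused with cold saline. M1 was cut from brain slices held in medium, by its mCherry fluorescence, and frozen. The labels number 4 samples per treatment, and the 8 libraries of total RNA were taken as 1 animal each. In both constructs a fragment of the neuronal *Synapsin I* promoter drives expression, so that the shRNA acts in transduced neurons, while the tissue sequenced also holds neurons without virus, glia, vessels, meninges and what blood the perfusion left. The comparison asks which transcripts differ in mature M1 once *Fezf2* is reduced.

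Immediate early genes are transcribed without new protein synthesis when calcium and kinase signals reach factors already bound at their promoters, such as CREB and the serum response factor SRF. Most encode transcription factors that go on to regulate later genes, and *Arc* encodes a protein that acts at synapses. Their transcripts are short-lived, so that in cortex their level follows recent activity.

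The libraries held 54684016 to 58003814 counts on genes. Values are given as normalized counts, that is, counts scaled to a common library size after TMM normalization. *Fezf2*, the targeted gene, encodes a zinc finger transcription factor of layer 5 projection neurons. It had 688, 767, 735 and 702 normalized counts in control replicates 1 to 4, and 621, 583, 568 and 592 in *Fezf2 shRNA* replicates 1 to 4. Every *Fezf2 shRNA* library lay below every control library, as the labels have it. The log2 fold change was -0.29 (standard error 0.0781), with an adjusted p of 0.0824 in edgeR's quasi-likelihood test, and the two-sided exact permutation test gave p = 0.0286, the smallest that 4 against 4 libraries can give. In DESeq2 the adjusted p was 0.0256, past the threshold of 0.05, and with a gene length offset in edgeR the log2 fold change was -0.18 (adjusted p = 0.446). In bulk tissue, fewer cells of a type and less RNA per cell cannot be told apart.

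RefSeq promoter entries (build GRCm38.p6) were found for 7 of the 10 members, *Fos*, *Fosb*, *Junb*, *Egr2*, *Egr4*, *Npas4* and *Nr4a1*, and none for *Arc*, *Egr1* and *Egr3*. The 250 bases before the start were searched for motifs chosen after values were seen. These were the half-site of the cAMP response element, TGACG on either strand (CGTCA where it reads on the other strand). The CArG box, the element that SRF binds, was searched for too. The part of these motifs in the members' values was not tested. All 7 entries held at least 1 half-site, as did 17.8% of the 32851 promoter entries of the table, and 1 of the 7, that of *Egr2*, held a CArG box, as did 1.47% of all entries. The window of *Npas4* lies wholly in annotated exon sequence of the gene (250 of 250 bases), and that of *Fosb* holds 7 exon bases. The 4 entries that start at the first base of the counted transcript are shown, with the matched bases in capitals. They lie at chr12:85473640-85473889 on the plus strand (*Fos*), chr10:67537619-67537868 on the plus strand (*Egr2*), chr6:85513590-85513839 on the minus strand (*Egr4*) and chr15:101266596-101266845 on the plus strand (*Nr4a1*), directly upstream of the transcript counted for each gene and free of annotated exons, and that of *Egr2* lies inside 2 other annotated transcripts of the gene, which start earlier.
Fos: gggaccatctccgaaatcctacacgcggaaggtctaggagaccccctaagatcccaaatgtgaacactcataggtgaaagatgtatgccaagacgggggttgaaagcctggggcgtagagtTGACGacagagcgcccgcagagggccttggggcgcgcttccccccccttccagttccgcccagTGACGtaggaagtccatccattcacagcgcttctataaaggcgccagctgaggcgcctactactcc
Egr2: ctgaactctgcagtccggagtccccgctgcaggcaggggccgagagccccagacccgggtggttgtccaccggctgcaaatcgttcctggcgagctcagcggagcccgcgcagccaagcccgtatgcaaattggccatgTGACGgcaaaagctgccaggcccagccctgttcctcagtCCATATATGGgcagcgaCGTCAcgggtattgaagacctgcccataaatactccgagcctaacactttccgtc
Egr4: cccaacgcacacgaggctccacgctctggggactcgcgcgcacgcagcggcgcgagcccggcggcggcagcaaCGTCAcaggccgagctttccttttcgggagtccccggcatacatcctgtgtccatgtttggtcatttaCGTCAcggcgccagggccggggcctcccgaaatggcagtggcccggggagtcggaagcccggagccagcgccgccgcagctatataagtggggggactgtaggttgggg
Nr4a1: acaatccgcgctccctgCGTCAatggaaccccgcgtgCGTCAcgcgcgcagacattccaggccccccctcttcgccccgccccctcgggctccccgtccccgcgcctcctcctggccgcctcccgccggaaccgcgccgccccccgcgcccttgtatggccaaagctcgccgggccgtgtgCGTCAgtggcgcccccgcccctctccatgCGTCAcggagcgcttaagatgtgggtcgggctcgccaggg
In *Fos* the half-sites begin 129 and 66 bases before the start. In *Egr2* they begin 111 and 55 bases before it, with the CArG box at 72. In *Egr4* they begin 177 and 109 bases before it, and *Nr4a1* has 4, which begin 233, 213, 69 and 40 bases before it. A match describes these letters and does not show a bound site, and bases farther upstream than 250 were not searched.

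The members of the AP-1 family, whose proteins pair to bind DNA, were *Fos*, *Fosb* and *Junb*. *Fos*, the gene most used to mark recently active neurons, is on chromosome 12 (ENSMUST00000021674, 85473890 to 85477273, 4 exons). It had 686, 1927, 628 and 1024 normalized counts in control replicates 1 to 4, and 656, 2620, 2159.7 and 514 in *Fezf2 shRNA* replicates 1 to 4. Control replicate 2 and *Fezf2 shRNA* replicates 2 and 3 were high, the other 5 libraries lower. The treatments overlapped, with 2 *Fezf2 shRNA* libraries above every control and 1 below every control. *Junb*, a gene of 1 exon on chromosome 8 (ENSMUST00000064922, 84976910 to 84978718) whose protein is a partner of FOS, had 1325, 3883, 1446 and 2555 in the controls, and 1946, 5121, 4290.5 and 1503 with *Fezf2 shRNA*. The same 3 libraries were highest, followed by control replicate 4. *Fosb*, a close relative of *Fos* on chromosome 7 (ENSMUST00000003640, 19302696 to 19310051, 4 exons) whose stable splice form builds up with repeated activity, was the weakest member. It had 257, 429, 218 and 466 normalized counts in the controls, and 219, 501, 528 and 247 with *Fezf2 shRNA*. Only 3 of the 8 libraries exceeded 8 CPM (counts scaled to library size) for *Fosb*. The filter asked for 4 such libraries, so that *Fosb* has no fitted fold change. Control replicates 2 and 4 and *Fezf2 shRNA* replicates 2 and 3 were high for it too, and its treatments overlapped (exact permutation test, p = 0.686).

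The effector *Arc* and the transcription factors *Npas4* and *Nr4a1* shared the set of 4 highest libraries of *Fos*, in differing orders. *Arc*, whose protein takes part in the removal of AMPA receptors from synapses, lies on chromosome 15 (ENSMUST00000023268, 74669083 to 74672568, 3 exons). It had 8299, 27214.5, 5877 and 14944 normalized counts in the controls, and 8989.6, 21396, 22586 and 8832 with *Fezf2 shRNA*. Its highest and its lowest library, control replicates 2 and 3, were both controls and stood 4.63-fold apart. *Npas4*, an activity-dependent factor found largely in neurons that regulates inhibitory synapses, lies on chromosome 19 (ENSMUST00000056129, 4984355 to 4990316, 8 exons). It had 777, 1326, 703 and 1391 in the controls, and 829, 1823, 1639 and 945 with *Fezf2 shRNA*. Its 4 highest libraries were those of *Fos*, 2 of each treatment, and the treatments overlapped. *Nr4a1*, an orphan nuclear receptor on chromosome 15 (ENSMUST00000023779, 101266846 to 101274795, 7 exons), had 1768.5, 4937, 1490.1 and 3497 in the controls, and 2089.98, 5106, 4895 and 1931 with *Fezf2 shRNA*. For *Nr4a1* a gap of 1.67-fold separated the 4 highest libraries, control replicates 2 and 4 and *Fezf2 shRNA* replicates 2 and 3, from the other 4.

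The EGR zinc finger factors differed most among themselves in their range. *Egr1*, on chromosome 18 (ENSMUST00000064795, 34859823 to 34864984, 2 exons), is well expressed in resting cortex and is often used as a readout of activity. It had 6327, 8268, 5435 and 5677 normalized counts in the controls, and 6292, 8008, 8524 and 5395 with *Fezf2 shRNA*, a range of 1.58-fold from lowest to highest, the narrowest of the 10 members. *Egr2*, which also directs myelination in peripheral nerve, is on chromosome 10 (ENSMUST00000048289, 67537869 to 67542188, 2 exons). It had 476, 956, 579 and 337 in the controls, and 434, 1389.9, 1037 and 240.1 with *Fezf2 shRNA*, the widest range (5.79-fold). It departed from the others in control replicate 4, which was the lowest control for *Egr2* although it was among the 4 highest libraries for 7 members. *Egr3*, on chromosome 14 (ENSMUST00000035908, 70077203 to 70079955, 3 exons), acts in the formation of muscle spindles and in cortical plasticity. It had 1396, 2514, 1146 and 1782 in the controls, and 1567, 2387, 1884 and 1707 with *Fezf2 shRNA*. Its *Fezf2 shRNA* libraries all lay inside the range of the controls. *Egr4*, the least studied of the family, on chromosome 6 (ENSMUST00000095759, 85511121 to 85513589, 2 exons), had 415, 773, 448 and 551 in the controls, and 519, 979, 868 and 562 with *Fezf2 shRNA*. Its 2 highest libraries were *Fezf2 shRNA* replicates 2 and 3, with control replicate 2 next.

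**Figure D1:**
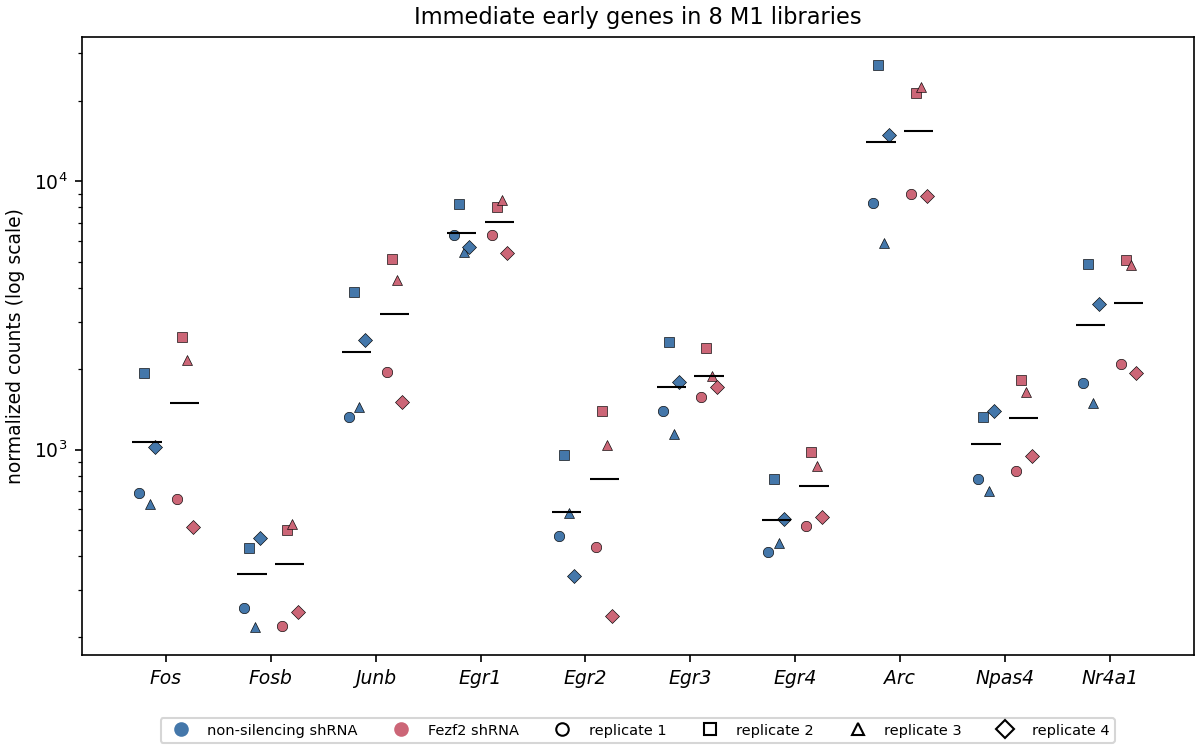
Normalized counts (log scale) of the 10 immediate early genes in 4 control (*non-silencing shRNA*, blue) and 4 *Fezf2 shRNA* libraries (red), with the replicate number as the symbol and the mean of each treatment as a bar. The treatments overlap for every gene, and replicate 2 of both treatments and *Fezf2 shRNA* replicate 3 are high throughout.

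Levels were compared between genes as CPM per kb of the counted interval, which spans 1.81 kb (*Junb*) to 7.95 kb (*Nr4a1*) and includes introns. *Arc* stood highest with a mean of 75.2 CPM per kb over the 8 libraries (29.9 to 139), and was above *Junb* in 8 of 8 libraries. *Junb* (27.1, range 13.0 to 50.3) and *Egr1* (23.2, range 18.6 to 29.3) could not be ordered, since *Junb* was the higher in 4 of 8 libraries. *Egr3* followed with 11.6 and *Nr4a1* with 7.18, and *Egr3* was above *Nr4a1* in 8 of 8 libraries. *Fos* (6.70), *Egr4* (4.60), *Npas4* (3.51) and *Egr2* (2.80) came next, each with a range over libraries that overlapped that of its neighbours. *Fosb* was lowest with 0.865 CPM per kb. Of the 9 pairs of neighbours in this order, the ranges overlapped in 8, all but *Egr1* and *Egr3*. By this measure *Arc* stood 87.0-fold above *Fosb*. The order and this ratio depend on the divisor, since exons fill unlike shares of the intervals. They make up 2477 of 7950 bases in *Nr4a1* and 1509 of 2753 in *Egr3*. An order per exonic base was not computed.

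No member differed between the treatments by the test. Of the 9 members that passed the filter, 0 were past the threshold (in edgeR, an adjusted p of 0.05 or less with a log2 fold change of 0.2 or more in either direction), a threshold that 208 of the 9959 genes tested passed (2.09%), 195 higher and 13 lower with *Fezf2 shRNA*. The split depended on gene length: among the 2153 genes under 10 kb it was 1 higher and 9 lower, and with the gene length offset 0 higher and 2 lower over all genes. At an unadjusted p under 0.05 in edgeR the count was also 0 of 9, against 19.6% of all genes tested, and DESeq2 placed 0 of 9 past the same threshold, against 7.55%. In edgeR, adjusted p-values of the members ran from 0.337 (*Egr4*) to 0.891 (*Arc*). Treatments that do not overlap were found for 0 of the 10 members, against 11.8% of the genes tested. Two-sided exact permutation tests on log2 CPM gave p from 0.2 (*Egr4*) to 0.8 (*Egr2*).

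The fitted log2 fold changes were all on the positive side with wide intervals. *Junb* was at 0.48 (standard error 0.420, 95% confidence interval -0.45 to 1.41), with mean normalized counts of 2302 ± 1191 in the controls against 3215 ± 1764 under *Fezf2 shRNA* (SD, n = 4 each). *Fos* was also at 0.48 (standard error 0.515), with 1066 ± 599.9 against 1487 ± 1060.5 counts (SD, n = 4 each). *Egr4* was at 0.42 (standard error 0.239), with 547 ± 162 against 732 ± 226 counts (SD, n = 4 each). In each of these genes the difference between the means was smaller than the SD of the *Fezf2 shRNA* libraries, and in *Egr4* it was larger than the SD of the controls. *Egr2* (0.40), *Npas4* (0.32), *Nr4a1* (0.26), *Egr3* (0.14), *Egr1* (0.13) and *Arc* (0.13) followed. The interval was narrowest for *Egr1*, -0.22 to 0.49, and for *Arc* it ran from -0.88 to 1.15, so that differences of up to 1.40-fold (*Egr1*) or 2.22-fold (*Arc*) in either of these genes lie within their intervals.

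**Figure D2:**
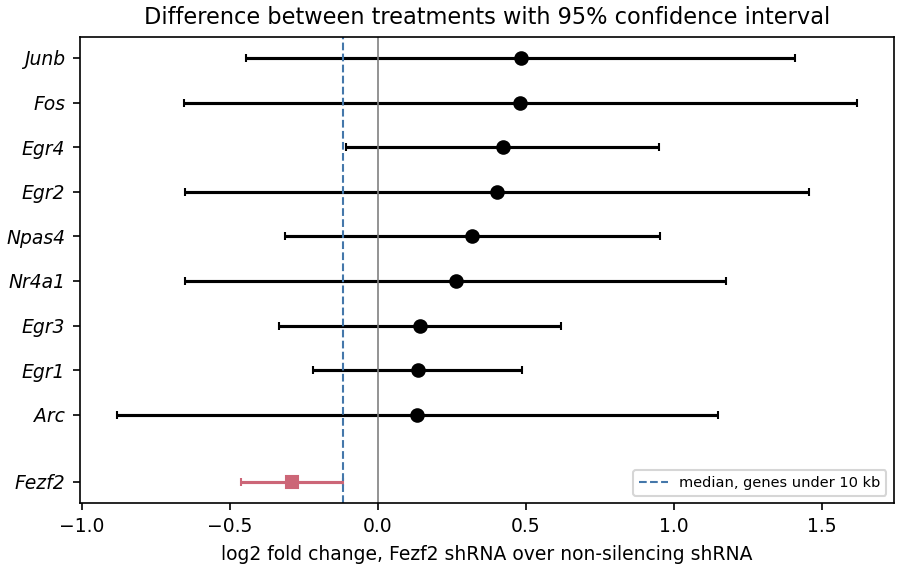
Log2 fold change of the 9 tested members and of *Fezf2*, *Fezf2 shRNA* over *non-silencing shRNA*, with 95% confidence intervals of the edgeR fit (n = 4 each). All 9 members sit to the right of 0 with intervals that cross 0, and the dashed line is the median of the genes under 10 kb (-0.12).

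The median log2 fold change of the 9 members was 0.32, against -0.027 over all 9959 genes tested, of which 43.4% had a positive value. All members span less than 10 kb, and the 2153 tested genes under 10 kb had a median of -0.12, with 16.6% positive. The members shared their variation over libraries, so that their common sign does not count as 9 separate observations. Over all 10 members, *Fosb* included, the median log2 ratio of mean normalized counts was 0.29 (0.13 to 0.48). Single libraries set the size of the fitted median of the 9 tested members (0.32). It was 0.060 without *Fezf2 shRNA* replicate 2, with 7 of 9 members positive, and 0.64 without control replicate 2. It was 0.20 without control replicate 1, 0.18 without control replicate 3, 0.20 without *Fezf2 shRNA* replicate 3 and 0.49 without *Fezf2 shRNA* replicate 1. With single libraries left out, *Fos* ran from 0.060 to 0.93, *Junb* from 0.17 to 0.86 and *Nr4a1* from 0.025 to 0.64. Likewise *Egr4* ran from 0.25 to 0.63, *Npas4* from 0.12 to 0.49, *Egr3* from 0.00082 to 0.39 and *Egr1* from 0.039 to 0.28. The replicate block took *Fos* to 0.30 and *Egr2* to 0.22. The gene length offset put *Egr3* and *Egr1* at 0.24 and *Arc* at 0.22. *Arc* turned negative without control replicate 1 (-0.051) or 3 (-0.11), or without *Fezf2 shRNA* replicate 2 (-0.064) or 3 (-0.10), and *Egr2* without *Fezf2 shRNA* replicate 2 (-0.040). Under the 2 other scalings, median of ratios and library totals, each of the 9 members kept a positive value.

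The members varied far more between animals of the same treatment than most genes did. The SD of log2 CPM within treatments was 0.99 for *Fos*, which ranked 17 of 9959 genes from the top, against a median of 0.12 over all genes tested. *Egr2* (0.93, rank 38), *Arc* (0.87, rank 51), *Junb* (0.80, rank 57), *Nr4a1* (0.79, rank 58) and *Npas4* (0.54, rank 95) were also among the most variable 1% of genes. These 6 genes encode a synaptic effector and 5 transcription factors. *Egr4* (0.43, rank 184), *Egr3* (0.39, rank 218) and *Egr1* (0.29, rank 430) were lower. All 9 exceeded the 95th percentile of all genes, 0.28, which 5% of genes exceed by definition. The spread of *Fos* was 8.13 times that of the median gene and the spread of *Egr1* 2.39 times. *Fezf2*, at 0.062 (rank 9245), was among the least variable genes.

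**Figure D3:**
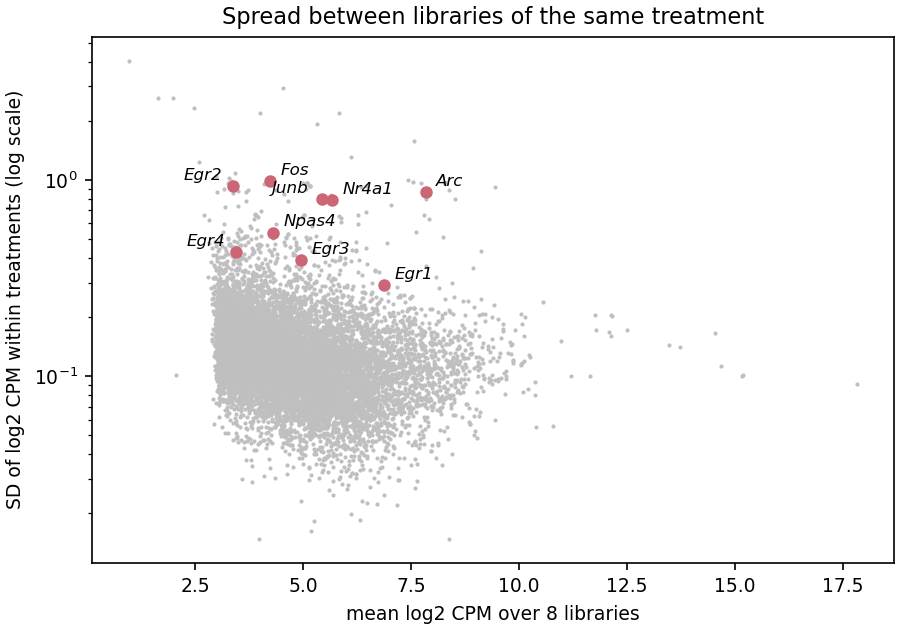
SD of log2 CPM within treatments (log scale) against mean log2 CPM over 8 libraries for each of the 9959 genes tested (grey), with the 9 tested members in red. The members lie above most genes of their level, *Fos* (0.99) and *Egr2* (0.93) highest and *Egr1* (0.29) lowest.

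The variation was shared between members, and it crossed the treatments. Control replicate 2 and *Fezf2 shRNA* replicates 2 and 3 were each among the 4 highest libraries for 10 of 10 members, and control replicate 4 for 7 of 10. *Fezf2 shRNA* replicate 1 was among them for 0 members, and control replicates 1 and 3 and *Fezf2 shRNA* replicate 4 for 1 member each, *Egr1*, *Egr2* and *Egr4* in that order. The highest value of a member fell in *Fezf2 shRNA* replicate 2 for 6 genes, in replicate 3 for 2 genes and in control replicate 2 for 2 genes. The lowest fell in control replicate 3 for 5 genes, in *Fezf2 shRNA* replicate 4 for 3 genes and in control replicate 1 for 2 genes. Averaged over the 10 members and relative to the mean of all 8 libraries, log2 CPM was -0.50, 0.59, -0.62 and 0.018 in control replicates 1 to 4, and -0.39, 0.79, 0.64 and -0.53 in *Fezf2 shRNA* replicates 1 to 4. Each treatment thus held libraries at both ends.

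**Figure D4:**
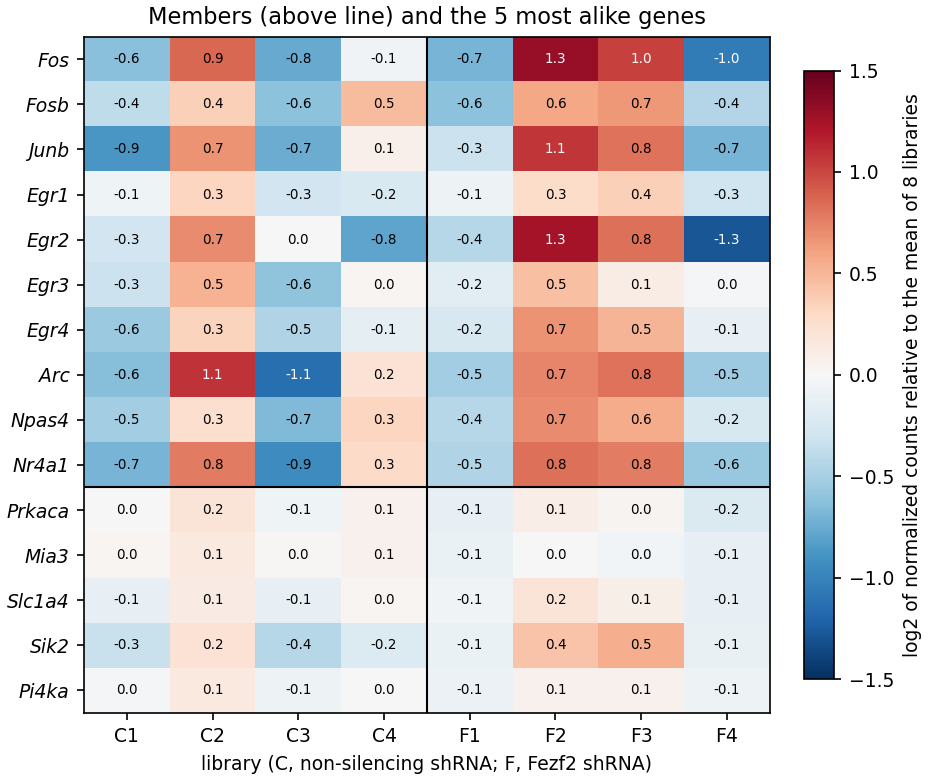
Log2 of normalized counts relative to the mean of the 8 libraries, for the 10 members (above the line) and the 5 genes most alike to them (below), by library (C, *non-silencing shRNA*; F, *Fezf2 shRNA*; the number is the replicate). Columns C2, F2 and F3 are above the mean for every member, and the 5 other genes vary less than most members, though *Sik2* varies more than *Egr1*.

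Total counts did not follow this order, with 58003814, 55431945, 56710016 and 54684016 in the controls and 56969290, 56495396, 56160031 and 55932510 with *Fezf2 shRNA*. Genes of the mitochondrial chromosome took 30.6, 29.1, 28.3 and 28.2% of counts in the controls and 30.8, 29.7, 27.7 and 30.0% with *Fezf2 shRNA*. The part of this share in the members' values was not tested.

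Other tested genes were ranked by how closely they followed the members. The measure was Pearson's r, over the 8 libraries, between a gene's deviation from its treatment's mean log2 CPM and the mean deviation of the 9 tested members, and it serves as a description with no p. The 5 most alike genes were *Prkaca* (r = 0.985), *Mia3* (0.981), *Slc1a4* (0.977), *Sik2* (0.976) and *Pi4ka* (0.97). *Prkaca* encodes a catalytic subunit of protein kinase A, *Mia3* a protein of export from the endoplasmic reticulum, *Slc1a4* a transporter of neutral amino acids, *Sik2* a salt-inducible kinase and *Pi4ka* a lipid kinase. Their values moved little, and *Prkaca* had 3634, 4148, 3455 and 3771 normalized counts in the controls and 3310.1, 3857, 3725 and 3118 with *Fezf2 shRNA*. *Sik2* varied more, with 2103, 3098, 1981 and 2312 in the controls and 2473, 3569.7, 3867.5 and 2454 with *Fezf2 shRNA*. Of the 9950 genes outside the members, 426 (4.28%) had r above 0.8, so that a likeness of this size over 8 libraries is not rare.

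A list of 40 other immediate early genes was read from the same fit, and 22 of them passed the filter. In edgeR 0 of 22 were past the threshold, 2 had an unadjusted p under 0.05 (*Ier5* and *Sgk1*; 19.6% of all genes tested did), and DESeq2 placed 1, *Sgk1*, past it (against 7.55% of all genes). The median log2 fold change was 0.062, with 13 positive and 9 negative values. *Sgk1*, a kinase induced by glucocorticoids, was at -0.48 (adjusted p = 0.0908 in edgeR). The list's most abundant genes per kb were *Jund*, with 3010.3 ± 312 normalized counts in the controls and 2808 ± 393 with *Fezf2 shRNA*, and *Plk2*, a kinase of synaptic scaling, with 6456 ± 199 and 5986 ± 667 (SD, n = 4 each). Of the 22, 11 exceeded the 95th percentile of spread (against 5% of all genes tested). In addition 13 had r above 0.8 with the members (against 4.28% of genes outside them). The 50 genes with the highest r came from the 9950 outside the members, to which the 22 belong. Among these 50, 7 (14.0%) were on this list, which is 31.8% of its tested genes. They were *Tiparp*, *Trib1*, *Btg2*, *Nr4a3*, *Sik1*, *Crem* and *Dusp6*, named after their values were seen. *Btg2*, an antiproliferative factor, had 315, 1224, 318 and 631 normalized counts in the controls and 252, 1596, 1155 and 448 with *Fezf2 shRNA*. Its 4 highest libraries were those of *Fos*.

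Genes induced later by activity, which encode growth factors, neuropeptides and other secreted proteins, formed a list of 18, of which 11 passed the filter. The edgeR fit put 0 of the 11 past the threshold (against 2.09% of all genes tested). An unadjusted p under 0.05 was found for 0 (against 19.6%), and DESeq2 placed 0 past the threshold (against 7.55%). The median log2 fold change was -0.091. Of the 11, 4 exceeded the 95th percentile of spread and 3 had r above 0.8 with the members (against 4.28% of genes outside them). Most abundant per kb were the neuropeptide gene *Sst* (2930.4 ± 407 in the controls, 2751 ± 75.6 with *Fezf2 shRNA*) and the pentraxin receptor gene *Nptxr* (20799.6 ± 2283 and 23200.3 ± 1772; normalized counts, SD, n = 4 each). *Bdnf*, the neurotrophin gene, named after its values were seen, had 675, 1499, 862 and 967 in the controls and 945, 1568, 1445 and 981 with *Fezf2 shRNA*. Control replicate 2 and *Fezf2 shRNA* replicates 2 and 3 were its 3 highest libraries.

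The factors and kinases upstream of the members, with their partners, formed a list of 31 genes, of which 28 passed the filter. The edgeR fit put 0 past the threshold, with 4 at an unadjusted p under 0.05 (*Crebbp*, *Mef2a*, *Rps6ka2* and *Rps6ka3*; 19.6% of all genes tested), and DESeq2 placed 1, *Rps6ka3*, past it (against 7.55% of all genes). The median log2 fold change was 0.085, with 20 positive and 8 negative values. Over all genes tested 43.4% were positive, and among those of 10 kb or more 50.8%. Gene by gene, the treatments did not overlap for 2 of the 28, against 11.8% of all genes tested. The summed level of the list's genes was 4149.8, 4032, 3872 and 3797 CPM in the controls and 4418, 4184, 4251 and 4223 CPM with *Fezf2 shRNA*, without overlap. Their spread was that of most genes, with a median SD of log2 CPM within treatments of 0.12 and 0 of 28 above the 95th percentile, and 0 of 28 had r above 0.8 with the members. The 2 most abundant per kb were the kinase gene *Camk2a* (31092 ± 2315 in the controls, 34702 ± 2156 with *Fezf2 shRNA*) and *Mef2c* (35190.1 ± 3682 and 37036 ± 2842; normalized counts, SD, n = 4 each), which encodes a factor of activity-dependent transcription.

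Genes of heat and dissociation stress included some that followed the members. Of 8 listed genes 5 passed the filter, and 0 were past the threshold in edgeR (against 2.09% of all genes tested). An unadjusted p under 0.05 was found for 1, *Hspa5* (against 19.6%), and DESeq2 placed 0 past the threshold (against 7.55%). The median log2 fold change was -0.10. Of the 5, 4 had r above 0.8 with the members (against 4.28% of genes outside them) and 0 exceeded the 95th percentile of spread. The summed level of the 8 genes was 1664, 1876, 1691 and 1687 CPM in the controls and 1457, 1888, 1684 and 1381 CPM with *Fezf2 shRNA*. The most abundant gene per kb, *Hspa8*, a constitutive chaperone, had 53676, 60586, 54038 and 54501 normalized counts in the controls and 46313, 62835, 54153 and 44313 with *Fezf2 shRNA*, and *Hsp90aa1*, second in abundance, had 28378.5 ± 1121 and 25343 ± 3056 (SD, n = 4 each). No gene of the list was at 0 in any library. By this sum replicate 2 of both treatments was highest in its group, as for most members, while by the mean log2 level of the list control replicate 4 (0.15) was above control replicate 2 (0.066). The part of this list in the members' values was not tested.

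Cell type markers were read in the same way. Across 11 lists of 79 marker genes, 56 passed the filter, of which 0 were past the threshold in edgeR, 16 had an unadjusted p under 0.05 in edgeR (19.6% of all genes tested did), 6 were past it in DESeq2 (*Rbfox3*, *Fezf2*, *Mog*, *Cnp*, *Olig1* and *Rgs5*; 7.55% of all genes tested were) and 1, the deep-layer gene *Crym*, had r above 0.8 with the members. The 95th percentile of spread was exceeded by 20 of the 56, among them 7 of 8 oligodendrocyte genes, 4 of 5 blood genes (median SD of that list 0.87) and 4 of 7 microglial genes. Genes of cortical neurons were abundant, as the labelled tissue would have it, among them *Slc17a7*, the vesicular glutamate transporter, at 30890.4 ± 3350.2 normalized counts in the controls and 29429 ± 1634 with *Fezf2 shRNA*, and *Thy1*, at 10748 ± 883 and 10150.1 ± 736 (SD, n = 4 each). The median log2 fold change was -0.025 for neurons (10 tested), -0.16 for deep-layer neurons (6, with *Tbr1* most abundant per kb and *Fezf2* second), -0.088 for astrocytes (8, *Aldoc* and *Gfap*), 0.076 for microglia (7, *C1qa* and *C1qc*) and -0.20 for oligodendrocyte precursors (4, *Olig1* and *Gpr17*). It was -0.092 for endothelial cells (2 tested, with *Cldn5* and *Ly6c1* most abundant per kb but under the filter), -0.18 for pericytes and smooth muscle (2, *Rgs5* and *Pdgfrb*), -0.11 for striatal neurons (4 tested) and 0.36 for blood (5, *Hbb-bs* and *Hba-a1*). Of 6 genes of meningeal fibroblasts, led by *Igf2* and *Col1a1*, 0 passed the filter.

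The oligodendrocyte list had the median farthest from 0 of the marker lists. All 8 genes had a negative log2 fold change (median -0.53), while 43.4% of all genes tested had a positive one. Of the 8, 6 had an unadjusted p under 0.05 (against 19.6% of all genes tested). In edgeR 0 were past the threshold (against 2.09%), and DESeq2 placed 2, *Mog* and *Cnp*, past it (against 7.55%). The summed level of the list was 1136, 1550.0, 1360.0 and 2058 CPM in the controls and 891, 843, 1381 and 1384 CPM with *Fezf2 shRNA*. The median r of the list with the members was 0.0378. No gene of the list was at 0 in any library.

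**Figure D5:**
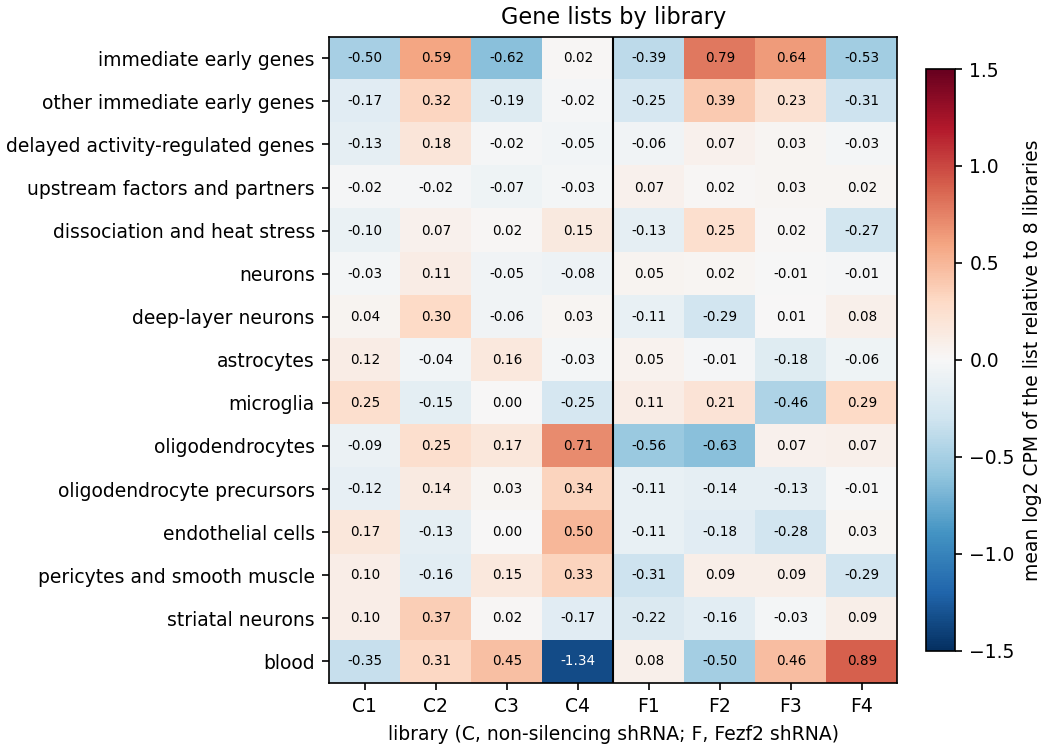
Mean log2 CPM of each gene list relative to the mean of the 8 libraries, by library (C, *non-silencing shRNA*; F, *Fezf2 shRNA*; the number is the replicate). The immediate early genes (top) run from -0.62 to 0.79 and the other immediate early genes follow the same signs in 7 of 8 libraries. The mean of the factors upstream stays between -0.066 and 0.068, below 0 in every control and above 0 in every *Fezf2 shRNA* library. Gene by gene, the treatments did not overlap for 2 of the 28 tested genes of that list, against 11.8% of all genes tested.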

How the data were processed

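The authors aligned paired-end reads of total RNA to mm10 (GRCm38) with TopHat2 2.1.1, counted them per Ensembl transcript with bedtools 2.26.0 multiCov and deposited these counts without normalization. Such counts cover whole genomic intervals, introns included, so that reads of an overlapping gene may be counted with them. No annotated gene overlapped a member. How reads with several alignments were counted, and whether strand was used, is not given in the sources used here. A deposited table of the authors' own comparison was not used here.

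Of 94647 transcripts, 91320 were found in GENCODE release M21, and the other 3327 (1.82% of counts) were left out. The transcript with the lowest Ensembl number stood for each gene. Genes that exceeded 8 CPM in 4 or more libraries entered edgeR 4.0.16 (R 4.3.3) with TMM scaling. Its quasi-likelihood test had no covariate, and p-values were adjusted over all genes tested by Benjamini-Hochberg, a step tested on simulated data. The simulation gave every gene the same spread, lower than that of the members. It therefore does not show how the test behaves for genes as variable as these. Permutation tests used log2 CPM with a prior count of 2. The sources used here do not say how samples were ordered or grouped in collection, so p-values measure the spread between these samples.

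The members and lists were chosen with earlier results of these data known. Named genes are the members, *Fezf2*, genes of the lists past the threshold in DESeq2 (none were in edgeR) and the 2 most abundant per kb of each list (not named for oligodendrocytes and striatal neurons), and the 5 genes most alike to the members. Other names are marked, or complete a count. The r of 0.8, the 50 most alike genes, the percentiles of spread, the motifs and the promoters shown were chosen after values were seen. Alternatives were other scalings, other filters, DESeq2 1.42.0, the replicate number as a block, a gene length offset (loess, span 0.3), the widest transcript and each library left out. Further steps used Python with scipy.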

Additional observations from a re-analysis of the deposited data

Results flagged for a closer look

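In 120 groups of 4 libraries, a library that stood far from the other 3 (by the gap to its nearest neighbour as a share of the group's range) was found in 6, and chance gives about 1 in 20. None of the 6 was a group of a member or of *Fezf2*. Among the controls, *Hspa8* was high in replicate 2 (60586 normalized counts, against 53676 to 54501; gap 0.881), as was the summed level of the heat and dissociation stress genes (1876 CPM, against 1664 to 1691; gap 0.873). This is a library in which the members were high. *Camk2a* was high in control replicate 1 (34524, against 29478 to 30331; gap 0.831), as was *C1qc* (835, against 498 to 553; gap 0.836), and *Pdgfrb* in control replicate 4 (829, against 576 to 616; gap 0.844). With *Fezf2 shRNA*, the summed level of genes of pericytes and smooth muscle was high in replicate 3 (63.0 CPM, against 57.2 to 58.1; gap 0.840). The cause was not tested.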

How the results depend on the processing

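The count of members past the threshold was 0 in DESeq2, run once with all libraries, and in edgeR under every alternative, single libraries left out included. Unadjusted p-values under 0.05 numbered 0 of 9 in the edgeR fit as reported and in DESeq2, 1 with the replicate block, with or without the length offset, 2 when control replicate 2 was left out and 1 when *Fezf2 shRNA* replicate 1 was. The members' median log2 fold change ran from 0.27 (replicate block) to 0.42 (gene length offset), and from 0.060 to 0.64 with single libraries left out. Among these, *Arc* ran from -0.11 to 0.67, negative in 4, and *Egr2* from -0.040 to 0.74, negative in 1. With the widest transcript *Egr2* fell under the filter, leaving 8 members tested. *Fezf2* was past the threshold in DESeq2 (adjusted p = 0.0256), and with the gene length offset it was at -0.18 in edgeR (adjusted p = 0.446, or 0.439 with the block too).

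The count over all genes, 208, depended on the setting. It was 752 in DESeq2, 84 with a filter of more than 1 CPM, 103 with none, 90 with the replicate block, 2 with the gene length offset and 2 with replicate block and offset. With single libraries left out it ran from 0 to 368: 0, 368, 130 and 4 without control replicates 1 to 4, and 13, 269, 9 and 17 without *Fezf2 shRNA* replicates 1 to 4. It was 277 with edgeR's robust quasi-likelihood, an option tried after seeing the data, to look for the source of a different count reported earlier, and not adopted. The members stayed at 0, and robust dispersion and library totals of the filtered genes, tried for the same reason, left 208. The cause was not tested. Deviations over all genes had r of 0.307, 0.0931, -0.133 and 0.167 between libraries with the same number. Between libraries of the 2 treatments with different numbers, r ran from -0.226 to 0.266. Whether the numbers stand for pairs cannot be told from these values.

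The lowest count of a member in any library, 217 for *Fosb*, leaves counting error under the spread between animals. With 4 animals a treatment, the 95% confidence interval of *Fos*, the member with the widest spread, ran from -0.66 to 1.62.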

Other observations

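The members differ in how many annotated transcripts the table counts. *Egr2* has 7, *Fos* 4, *Arc* and *Egr1* 2 each, and the other 6 members 1 each. Transcripts of 1 gene share reads. Both transcripts of *Arc* had the same count in each of the 8 libraries, from 5975 to 26364. For *Fos*, the shorter transcript of 1495 bp that lies inside the counted one had 386, 1001, 301 and 571 counts in the controls and 350, 1418, 1214 and 289 with *Fezf2 shRNA*, with the same 4 highest libraries. For *Egr2*, the 511 bp transcript at the start of the counted one had 71, 156, 100 and 55 counts in the controls and 68, 262, 254 and 32 with *Fezf2 shRNA*. Control replicate 4 was low in it as in the counted transcript.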
